A study of Mus musculus with 18 samples.

Results

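Cardiomyocytes were examined in whole mouse embryos of the strain 129S4/SvJae at E8.5, the stage at which the heart tube loops and begins to beat. They were chosen by their transcripts alone. A cell was a member when its barcode held at least 3000 mouse UMIs (unique molecular identifiers, each standing for 1 captured transcript) and at least 2 UMIs for at least 5 of the 7 genes Myl7, Myl4, Tnnt2, Actc1, Tnni1, Myh6 and Myh7. The rule kept 3743 of 105556 barcodes in 18 libraries. Each library came from a single embryo, dissociated whole and captured with the 10x Genomics 3' v3 chemistry, so no dissection or sort enriched the heart. The WT group (Wildtype) held 7 embryos and 1207 members. The Dnmt1 KO group (genotype Dnmt1 null) held 3 embryos and 128 members, with 45, 23 and 60 in the separate embryos. The Dnmt3a KO group (Dnmt3a null) held 4 embryos and 841 members, and the Dnmt3b KO group (Dnmt3b null) held 1567 members in 4 libraries. No treatment was given to any group. The mutant embryos were obtained by natural mating of heterozygous parents and their genotype was read by PCR from ectoplacental cone, so every cell of a mutant embryo carried the deletion and an effect in the heart cannot be told apart from an effect of the mutant embryo around it.

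Dnmt3b KO 1 and Dnmt3b KO 2 shared 7493 barcodes, 85.7% of the first and 85.9% of the other, including 354 member barcodes, whereas the remaining pairs, of 153 in all, had at most 33 barcodes and at most 1 member barcode in common. The pair was therefore added together and counted as 1 embryo, Dnmt3b KO 1+2, which left 3 Dnmt3b KO embryos and 17 embryos in all. Counted once per barcode within that pair, the members numbered 3389.

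Cardiomyocytes are the contractile cells of the heart. Their sarcomeres are built of thick filaments of myosin and thin filaments of actin, tropomyosin and troponin, held together by titin and by the Z-disc, and the programme is switched on in cardiac mesoderm by transcription factors such as Nkx2-5, the Gata and Tbx factors, Hand2 and Mef2c. DNMT1 copies the pattern of CpG methylation onto the new DNA strand at each cell division, and DNMT3A and DNMT3B set methylation on unmethylated CpGs in the early embryo. The best known targets of this methylation are genes of the germline, imprinted genes and the inactive X chromosome. The comparisons below asked what the members of each mutant group transcribed relative to WT members, whether the 2 de novo methyltransferase mutants differed from each other, and whether the difference in the members was the same as in the rest of the embryo.

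The libraries held between 39528957 and 263845667 mouse UMIs, and the summed members of an embryo held between 1131349 (Dnmt1 KO 2) and 15588305 UMIs (Dnmt3b KO 1+2). Levels are given as CPM, that is the UMIs of a gene in the summed members of an embryo, scaled to 1e6 UMIs of those members. Because UMIs were read at 3' ends, CPM values were compared within a gene and not between genes. The targeted Dnmt1 transcript stood at 20.5, 10.6 and 13 CPM in Dnmt1 KO members against a lowest, median and highest WT value of 67.1, 111 and 115 CPM (log2 fold change -2.66, SE 0.21, adjusted p = 1.1e-07). Dnmt3a stood at 13.2, 15.3, 13 and 18.4 CPM in Dnmt3a KO 1, 2, 13 and 14 against 34.0, 41.3 and 48.6 CPM in WT, below every WT embryo but with an adjusted p of 0.026. Dnmt3a was also at 15.9 and 12.8 CPM in Dnmt3b KO 11 and 12 and at 48.3 CPM in Dnmt3b KO 1+2, so for this transcript Dnmt3b KO 11 and 12 lay in the range of the Dnmt3a KO embryos. Dnmt3b transcripts were not reduced in Dnmt3b KO members, at 29.3, 40.2 and 39.0 CPM against 20.6 to 45.2 CPM in WT, and this gene therefore does not check that label. The Y-linked gene Eif2s3y was listed at 0 in 6 of 7 WT embryos and in Dnmt3b KO 12, and lay between 41.5 and 60.0 CPM in WT 2 and the remaining mutant embryos, so WT was mostly without Y-linked transcripts and Dnmt1 KO and Dnmt3a KO were entirely with them.

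The label was set against heart genes that the rule did not use. The 25 heart transcription factors described below summed to 1929 CPM ± 136 (SD, n = 7) in WT members and 363 CPM ± 17.9 in the rest of the WT embryos. Dnmt3b KO members stood at 1890 CPM ± 358 (n = 3), Dnmt3a KO members at 1951 CPM ± 221 (n = 4) and Dnmt1 KO members at 1414 CPM ± 339 (n = 3), so the members of every group lay above the rest. The 51 sarcomere genes outside the rule summed to 20827 CPM ± 4106 in WT members and to 4126 CPM ± 1762 in Dnmt1 KO members, where Myom2 and Myoz2 were listed at 0. As a description of the rule itself, 54.6% ± 2.05 (SD, n = 7) of WT members of an embryo had 2 UMIs for all 7 genes, Dnmt3a KO stood at 44.8% ± 11.3 (n = 4), and Dnmt3b KO at 45.7% ± 7.42 (n = 3). In Dnmt1 KO 9.26% ± 13.3 (n = 3) of members had all 7 genes, and 91 of 128 members had exactly 5. Members of Dnmt1 KO 1 and 3 also held more UMIs, with medians of 77740 and 74054 per member against 26624 to 57769 in WT embryos. Dnmt1 KO 2 lay within that range at 35646. The other barcodes of Dnmt1 KO 1, 2 and 3 had medians of 59184.5, 37793 and 12111.5 UMIs. In Dnmt1 KO 3 the members were thus far deeper than the rest, as in WT 2 (34214.5 against 9403.5). Of the 60 members of Dnmt1 KO 3, 6 met the rule after thinning to 3000 UMIs, so the label there rests mostly on deep barcodes. A fixed minimum of 2 UMIs is met at a lower relative level in a deeper cell. Exactly 4 rule genes were met by 336 WT cells, beside 1207 members, and by 212 Dnmt1 KO cells, beside 128 members. In the rest of Dnmt1 KO embryos Tnni1, Tnnt2 and Myl7 averaged 60.6, 36.4 and 34.9 CPM against 15.4, 11.9 and 13.4 CPM in WT. Myl4 was at 6.49 against 6.32 CPM there. Actc1, Myh6 and Myh7 were lower, at 1.88, 0.287 and 0.195 against 8.74, 0.665 and 1.56 CPM. The bearing of this on the label was not tested. The Dnmt1 KO cells that met the rule are called Dnmt1 KO members below, and their lists and leading genes were also compared among cells with exactly 5 and among cells with 6 or 7 of the genes. Skeletal muscle, the other striated lineage, was at or near 0, with Myf5, Myod1, Myog and Myf6 summing to at most 0.304 CPM in WT members and to 0 in Dnmt1 KO members.

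The sequences below are the promoters of genes on which the results turn, each running from 250 bases before to 50 bases after the annotated start, 5′ to 3′ on the strand of the gene, from RefSeq on GRCm38.p6, the mouse build (mm10) of the deposited tables. Capitals mark each CG, the dinucleotide that the 3 enzymes methylate. The first 3 belong to germline genes that rose in mutant members, namely Slc25a31 (chr3:40708621-40708920, plus strand, 22 CG), Tex19.1 (chr11:121145893-121146192, plus strand, 16 CG) and Sycp1 (chr3:102936051-102936350, minus strand, 21 CG).
Slc25a31: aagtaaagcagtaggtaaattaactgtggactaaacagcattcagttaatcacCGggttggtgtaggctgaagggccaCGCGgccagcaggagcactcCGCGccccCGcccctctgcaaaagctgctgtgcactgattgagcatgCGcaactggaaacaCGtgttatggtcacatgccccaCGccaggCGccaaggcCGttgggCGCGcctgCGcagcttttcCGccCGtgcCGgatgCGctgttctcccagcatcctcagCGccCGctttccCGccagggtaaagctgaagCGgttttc
Tex19.1: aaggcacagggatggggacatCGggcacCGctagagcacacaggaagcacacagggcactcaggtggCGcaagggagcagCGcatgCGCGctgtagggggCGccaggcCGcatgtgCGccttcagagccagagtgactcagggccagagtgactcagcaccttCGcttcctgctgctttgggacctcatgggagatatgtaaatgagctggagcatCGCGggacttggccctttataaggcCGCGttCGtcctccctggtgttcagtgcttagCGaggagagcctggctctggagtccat
Sycp1: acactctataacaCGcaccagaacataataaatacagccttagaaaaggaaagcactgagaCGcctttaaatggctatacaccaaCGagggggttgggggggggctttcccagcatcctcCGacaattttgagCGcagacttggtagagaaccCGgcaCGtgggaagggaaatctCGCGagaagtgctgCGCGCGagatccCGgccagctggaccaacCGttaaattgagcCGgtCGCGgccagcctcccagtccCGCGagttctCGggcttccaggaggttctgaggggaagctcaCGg
For contrast, Ankrd1 (chr19:36119795-36120094, minus strand, 7 CG) and Myl3 (chr9:110763428-110763727, plus strand, 1 CG) are muscle genes that were lower in Dnmt1 KO members, and Mov10l1 (chr15:88982744-88983043, plus strand, 20 CG) is a germline gene that WT members already expressed. UMIs read at 3' ends do not show which start those transcripts used.
Ankrd1: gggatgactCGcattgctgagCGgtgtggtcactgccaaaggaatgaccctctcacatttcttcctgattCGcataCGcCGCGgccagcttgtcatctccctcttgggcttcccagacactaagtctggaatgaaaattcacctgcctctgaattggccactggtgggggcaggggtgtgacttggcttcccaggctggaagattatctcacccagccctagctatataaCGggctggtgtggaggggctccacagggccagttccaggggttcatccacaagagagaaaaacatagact
Myl3: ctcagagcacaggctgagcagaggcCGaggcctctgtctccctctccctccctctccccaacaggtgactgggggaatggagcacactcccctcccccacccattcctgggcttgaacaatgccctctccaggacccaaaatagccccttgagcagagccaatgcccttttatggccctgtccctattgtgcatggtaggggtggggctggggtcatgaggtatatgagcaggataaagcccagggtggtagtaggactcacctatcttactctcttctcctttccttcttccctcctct
Mov10l1: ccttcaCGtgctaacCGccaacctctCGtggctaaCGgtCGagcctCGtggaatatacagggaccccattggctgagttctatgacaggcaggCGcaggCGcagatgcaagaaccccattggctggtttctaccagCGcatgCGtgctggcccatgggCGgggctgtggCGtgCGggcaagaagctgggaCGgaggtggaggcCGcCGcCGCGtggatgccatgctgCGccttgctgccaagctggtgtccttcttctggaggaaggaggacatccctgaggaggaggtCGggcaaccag
The hexamer CACGTG, which reads the same on both strands, is present in the promoters of Slc25a31, Sycp1 and Mov10l1. Of the germline list used below, 48 of 55 genes matched a promoter, and 18 of them (37.5%) held CACGTG, compared with 7.24% of all 27025 promoters of the same length and 10.6% of those of the genes tested. The hexamer TCCCGC, searched on both strands, was in 41.7% of the germline promoters and 20.02% of all promoters, but in 37.1% of those of the genes tested. The median number of CG was 17 in the germline promoters, 7 in the 40 of 51 sarcomere promoters that matched, 7 over all promoters and 21 over those of the genes tested. Methylation itself was not measured in these cells, and a hexamer is a match of letters only.

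The share of cardiomyocytes among barcodes with at least 3000 mouse UMIs was 3.62% ± 0.740 (SD, n = 7) in WT, with embryos between 2.24% and 4.53%. In Dnmt1 KO the shares were 2.97%, 0.737% and 2.45%, in Dnmt3a KO they were 4.11%, 1.78%, 2.08% and 2.79% for replicates 1, 2, 13 and 14, and in Dnmt3b KO they were 4.64%, 3.84% and 6.33% for replicates 1+2, 11 and 12. All 3 mutant groups overlapped the WT range. The log2 difference from WT was -1.002 in Dnmt1 KO (p = 0.0667, exact two-sided permutation test), -0.47 in Dnmt3a KO (p = 0.115, exact test) and 0.44 in Dnmt3b KO (p = 0.1, exact test), and all 3 had an adjusted p of 0.115 over the 3 exact tests, so none passed at 0.05. The smallest p of the exact test for 3 against 7 embryos is 0.0167. A group of 3 embryos alone could therefore not reach an adjusted p under 0.05, and no absence of a difference is shown.

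**Figure D1:**
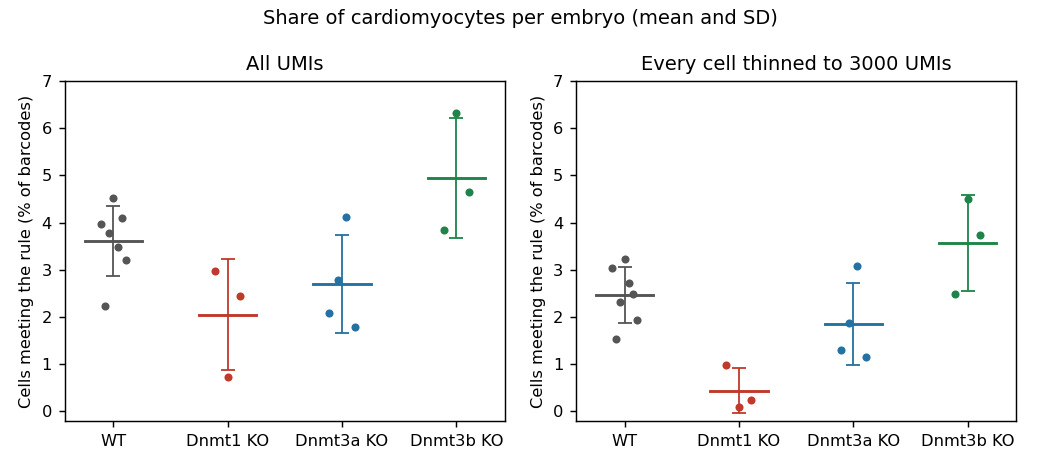
Share of barcodes that met the cardiomyocyte rule in each embryo (y axis, percent of barcodes with at least 3000 mouse UMIs), at full depth and after every barcode was thinned to 3000 UMIs; points are embryos and bars show the group mean with its SD. At full depth the Dnmt1 KO embryos lie between 0.737% and 2.97% and overlap WT, and after thinning they lie between 0.0962% and 0.990%, below the WT range of 1.54% to 3.24%.

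The share in Dnmt1 KO depended on depth and on where the rule was set. When every barcode was thinned at random to 3000 UMIs before the rule was applied, 15, 3 and 6 Dnmt1 KO cells met it, a share of 0.444% ± 0.479 (n = 3) against 2.47% ± 0.594 (n = 7) in WT. All 3 embryos then lay below every WT embryo, with p = 0.0167 in the exact permutation test, the smallest that 3 against 7 embryos can give, and an adjusted p of 0.05. Asking for 6 of the 7 genes gave 0.674% against 2.71% (log2 difference -2.46, exact p = 0.0167, adjusted p = 0.05), whereas asking for 4 gave 5.24% against 4.67% (log2 difference 0.0465, exact p = 0.933). The thinned shares of Dnmt3a KO (1.86% ± 0.869, n = 4) and Dnmt3b KO (3.58% ± 1.02, n = 3) did not pass the test against WT, with adjusted p of 0.145 and 0.125 over the 3 exact tests. Fewer cells of a type and fewer transcripts of its marker genes per cell cannot be told apart by a rule of this kind.

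The genes that chose the members are given as a description, without a test. Myl7 and Myl4, the atrial light chains of myosin that are expressed throughout the early heart tube, averaged 6785 and 3161 CPM in WT members and 1587 and 486 CPM in Dnmt1 KO members. Actc1, cardiac actin, averaged 5249 CPM in WT and 438 CPM in Dnmt1 KO. The troponins Tnnt2 and Tnni1 averaged 2836 and 1272 CPM in WT and 786 and 564 CPM in Dnmt1 KO. As a ratio, the largest gap was in the myosin heavy chains, the motors of the thick filament, with Myh6 at 627 and 18.3 CPM and Myh7 at 376 and 14.1 CPM. Only 21.2% of Dnmt1 KO members had 2 UMIs for Myh6 and 18.5% for Myh7, against 66.5% and 69.3% in WT. Dnmt3a KO and Dnmt3b KO lay near WT for each gene, for example 6024 and 6502 CPM for Actc1, 564 and 559 CPM for Myh6 and 493 and 354 CPM for Myh7.

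**Figure D2:**
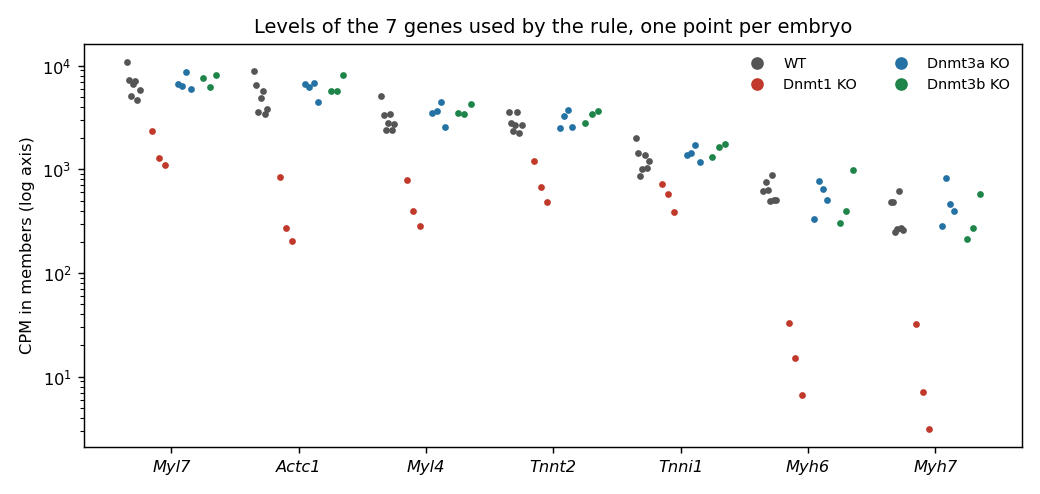
Level of the 7 genes used in the rule in the members of each embryo (y axis, CPM on a log scale; points are embryos, coloured by group). Dnmt1 KO embryos lie below all other embryos for each of the 7 genes, with Myh6 averaging 18.3 CPM against 627 CPM in WT, while Dnmt3a KO and Dnmt3b KO overlap WT. These genes chose the cells, so the plot is a description.

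Of 2898 genes at 50 CPM or more in WT members, 92 were at least 10-fold higher there than in the rest of the same embryos, and the 30 with the largest fold included 6 of the rule genes and 11 sarcomere genes outside the rule. Among the others were Tdgf1, a Nodal co-receptor of the outflow region (75.4 against 0.0552 CPM), Hspb7, a small heat shock protein of muscle (87.5 against 0.0737 CPM), Nppa, the atrial natriuretic peptide (126 against 0.141 CPM), and Pgam2, the muscle form of phosphoglycerate mutase (184 against 0.592 CPM). The same contrast was smaller in Dnmt1 KO, where Tdgf1 averaged 10.0 against 0.425 CPM and Nppa 2.90 against 0.651 CPM. At the boundary of the rule, 51 sarcomere genes that the rule did not use summed to 4607 CPM ± 849 (SD, n = 7) in WT cells with exactly 5 rule genes and 3516 CPM ± 689 in WT cells with exactly 4, which were not members, against 26895 CPM ± 3827 in WT members with 6 or 7. The corresponding sums in Dnmt1 KO were 3272, 2344 and 5793 CPM (n = 3). Cells just inside and just outside the rule were thus close to each other in both groups and stood apart from the rest of the WT embryo, whose sum was 1101 CPM ± 60.7.

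In Dnmt1 KO members the contractile programme was low as a whole. The paper staged embryos by their cell type proportions and reports a minor developmental delay of Dnmt1 null embryos. It places most embryos of the other groups near their nominal stage. The part of stage in this and the other Dnmt1 KO results was not tested. Summed over the 51 sarcomere genes, the 3 Dnmt1 KO embryos stood at 6104, 3551 and 2724 CPM and the WT embryos between 16176 and 27115 CPM with a median of 19845 CPM, so the groups did not overlap. Of the 46 sarcomere genes that passed the filter on low counts, 36 were lower in Dnmt1 KO members, none was higher and 10 did not pass the test (edgeR, adjusted p under 0.01 and log2 fold change of at least 1), with a median log2 fold change of -2.31. Over all 12478 genes tested, 6.79% were called in this comparison, 4.22% lower and 2.56% higher, and the median log2 fold change was 0.01. DESeq2 called 37 of the 46 lower and none higher, and no sarcomere gene had a higher level at an unadjusted p under 0.05. The list is tied to the rule, since sarcomere genes are expressed together, so its fall describes how these cells differ from WT members and is not independent of how they were chosen.

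Ankrd1, a titin-associated stress and transcription cofactor whose promoter is shown above, stood at 13.5, 0.884 and 1.11 CPM in Dnmt1 KO 1, 2 and 3, and at 576, 847 and 959 CPM as the lowest, median and highest WT value. It was 154-fold lower on the ratio of means and its log2 fold change was -7.04 ± 0.59 (SE; adjusted p = 2.8e-07). Myl3, a ventricular light chain, stood at 95.3, 28.3 and 21.0 CPM against 749, 983 and 1889 CPM in WT (log2 fold change -4.39 ± 0.48, adjusted p = 4.4e-06). Both genes were far below every WT embryo. Actn2, the alpha-actinin that crosslinks actin at the Z-disc, stood at 2.80, 3.54 and 2.97 CPM against 45.6, 58.6 and 152 CPM (log2 fold change -4.64 ± 0.51, adjusted p = 4.1e-06). Acta1, the skeletal form of actin that the embryonic heart also uses, stood at 16.8, 7.07 and 3.90 CPM against 266, 398 and 1128 CPM, and Mybpc3, which tethers myosin in the thick filament, at 16.8, 5.30 and 2.97 CPM against 90.7, 112 and 187 CPM. The log2 fold changes of these last 2 genes were -5.77 (adjusted p = 4.6e-06) and -3.87 (adjusted p = 7.3e-06).

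Other filament genes were lower too. Tpm1, tropomyosin, stood at 1691, 1074 and 860 CPM in Dnmt1 KO against a WT median of 5859 CPM and a lowest WT value of 5048 CPM (log2 fold change -2.21 ± 0.19, adjusted p = 4.2e-07). Ttn, titin, stood at 838, 335 and 202 CPM against a WT range of 1713 to 3256 CPM (-2.30 ± 0.40, adjusted p = 0.00046), and Tnnc1, the calcium sensor of the troponin complex, had a log2 fold change of -2.42 (adjusted p = 1.1e-05). Csrp3, a Z-disc protein, overlapped WT, at 173, 122 and 55.4 CPM against 169 to 598 CPM, and did not pass the test (adjusted p = 0.011). In thinned members, of which each kept 3000 UMIs, an Ankrd1 UMI was found in 60.9% ± 5.19 of WT members and 2.96% ± 5.13 of Dnmt1 KO members, against 0.564% of the thinned rest of WT embryos. For Ttn the shares were 75.7% ± 5.10 and 52.0% ± 16.9, against 0.852% in the rest of WT.

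This result depended on which cells were compared. Among cells with exactly 5 of the 7 genes, in embryos with at least 10 such cells (which left out WT 5, with 9), edgeR called 0 of 39 sarcomere genes, 13 were lower and 5 higher at an unadjusted p under 0.05, and the median log2 fold change was -0.38. Over all genes in that comparison 0.847% of 10152 were called lower and 1.06% higher. There, Ttn, Tnnc1 and Pgam2 had log2 fold changes above 0 (0.78, 0.45 and 1.11), Tpm1 stood at -0.45 and Ankrd1 at -4.23 (adjusted p = 0.013). Among cells with 6 or 7 of the genes, in embryos with at least 10 such cells (which left out Dnmt1 KO 2, with 5), 29 of 46 sarcomere genes were lower and none higher, with a median of -2.12, beside 3.13% of all genes called lower and 1.87% higher. Cells with exactly 5 genes made up 309 of the 1207 WT members and 91 of the 128 Dnmt1 KO members. Leaving out Dnmt1 KO 1, 2 or 3 gave 37, 32 and 28 lower genes. Across all lists, of the genes looked at singly that were called in Dnmt1 KO members, 7 of 27 lower and 20 of 22 higher genes were also called among cells with exactly 5 rule genes. The same held for 26 of 27 lower and 21 of 23 higher genes among cells with 6 or 7. Both classes are parts of the same members and the genes were picked by their calls there. These counts therefore describe the calls and are not a second test of them. Dnmt1 KO 2 also carried markers of other cells, with 8 yolk sac endoderm markers summing to 4323 CPM and 8 gut endoderm markers to 2162 CPM against at most 1532 and 281 CPM in any WT embryo, and no marker of either list at 0 in the Dnmt1 KO group; in Dnmt1 KO 1 and 3 those sums were 62.5 and 55.4 CPM and 44.6 and 261 CPM. The 8 trophoblast markers were higher in all 3 Dnmt1 KO embryos, at 133, 170 and 78.6 CPM against 14.1 to 37.1 CPM in WT embryos, with none at 0 in either group. They stood at 38.7, 61.2 and 196 CPM in Dnmt3b KO 1+2, 11 and 12. The X-linked genes Rhox6, Rhox9 and Plac1 were its 3 called genes in Dnmt1 KO. Members of the other groups carried markers of other cells too. The primitive erythroid markers summed to 29.7 to 6114 CPM in WT, 190 to 2211 CPM in Dnmt3a KO and 1515 to 2354 CPM in Dnmt3b KO. In Dnmt1 KO 1, 2 and 3 they stood at 16.0, 13.3 and 769 CPM. The part of all these markers in the result was not tested beyond the value without Dnmt1 KO 2.

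**Figure D3:**
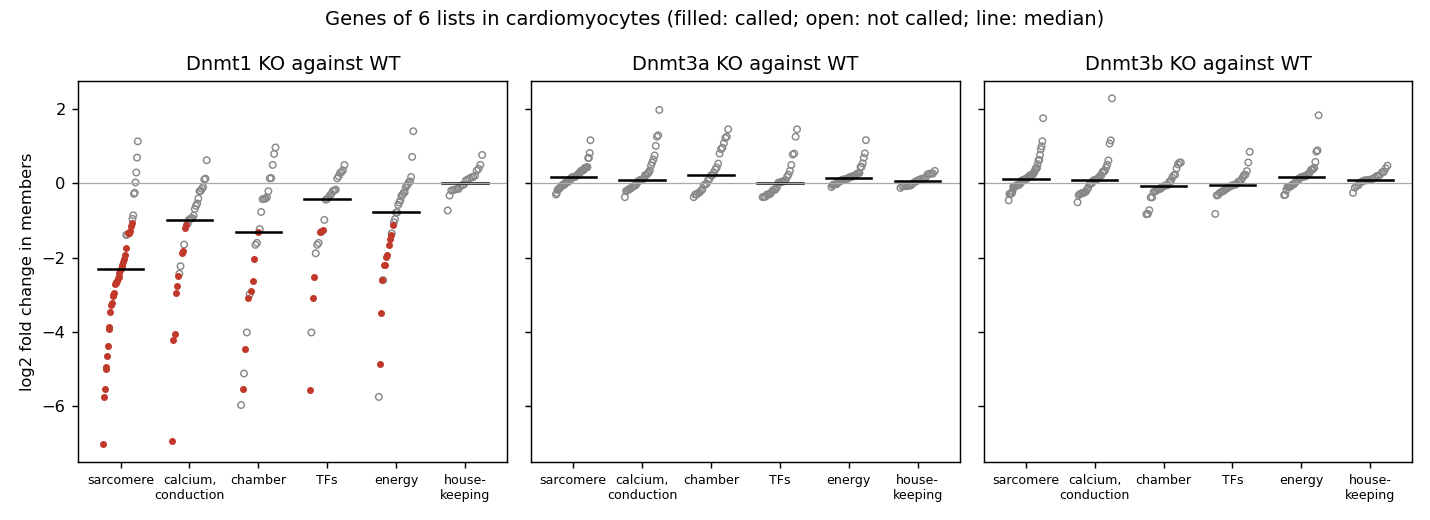
Log2 fold change of each tested gene of 6 gene lists in members of Dnmt1 KO, Dnmt3a KO and Dnmt3b KO against WT (y axis, log2 scale; x axis, 5 heart lists and the housekeeping list; filled points are called genes, open points are other tested genes, lines are list medians). In Dnmt1 KO the sarcomere genes reach -7.04 with a median of -2.31 and the transcription factors have a median of -0.42, and in Dnmt3a KO and Dnmt3b KO the medians of the heart lists lie between -0.08 and 0.21.

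Some transcription factors of the heart were lower in Dnmt1 KO members. All 25 were tested, 5 were lower (Nkx2-5, Hopx, Irx4, Smyd1 and Tbx2) and none was higher, with a median of -0.42, and 3 were lower without Dnmt1 KO 2 or without Dnmt1 KO 3. Over all genes tested with every embryo, 4.22% were lower and 2.56% higher. Nkx2-5, the homeobox factor of the early heart, stood at 51.9, 26.5 and 20.6 CPM in Dnmt1 KO members against 165, 217 and 244 CPM as the lowest, median and highest WT value (log2 fold change -2.54 ± 0.25, adjusted p = 1.2e-06). Hopx, a homeodomain protein acting with it, stood at 3.64, 0.884 and 0.929 CPM against 71.1, 91.7 and 176 CPM (-5.57 ± 0.58, adjusted p = 2.3e-06). Both were below every WT embryo, and Hopx alone was also called among cells with exactly 5 rule genes (-3.71), where Nkx2-5 stood at -1.19 without a call. Irx4, a ventricular factor, was at -3.08 (adjusted p = 9.5e-05) and Smyd1, a muscle methyltransferase that acts on histones and myosin, at -1.32 (adjusted p = 0.003), but among cells with exactly 5 genes they stood at -0.02 and 0.85. Among cells with 6 or 7 genes, Nkx2-5, Hopx, Irx4, Smyd1 and Tbx20 were called lower, and Tbx2 was not.

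Mef2c, Gata6 and Hand2, of the same network, overlapped WT. Mef2c was at 571, 325 and 296 CPM against 205 to 451 CPM, Gata6 at 221, 143 and 176 CPM against 137 to 194 CPM, and Hand2 at 103, 84.0 and 85.8 CPM against 68.8 to 109 CPM. Their log2 fold changes were 0.19, 0.28 and 0.13, with adjusted p of 0.63, 0.12 and 0.59. Among cells with 6 or 7 rule genes Gata6 stood at 0.77 (adjusted p = 0.00025), short of the size of 1. It was at -0.15 (adjusted p = 0.67) with exactly 5, and Mef2c and Hand2 were called in neither class. Tbx20 stood at 62.2, 37.1 and 43.3 CPM, below the WT range of 94.6 to 115 CPM, with a log2 fold change of -0.99 (adjusted p = 0.00064) that did not reach the size of 1. It was called among cells with 6 or 7 rule genes (-1.25, adjusted p = 0.00046) and stood at 0.24 among cells with exactly 5. In thinned members, a Mef2c UMI was present in 61.2% ± 10.0 of WT members and 58.0% ± 11.9 of Dnmt1 KO members (3.29% in the rest of WT), whereas Nkx2-5 was present in 47.5% ± 5.54 and 6.67% ± 6.67 (0.860% in the rest of WT).

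Calcium handling, chamber and energy genes followed the sarcomere in direction. The counts below stand beside 4.22% lower and 2.56% higher over all genes tested. Of 30 calcium handling and conduction genes tested of 35, 10 were lower and none higher, with a median of -0.98. Slc8a1, the sodium-calcium exchanger, stood at 18.8, 11.5 and 7.80 CPM against 64.5 to 114 CPM (log2 fold change -2.76, adjusted p = 0.00056). It was also called among cells with 6 or 7 rule genes (-2.40) and stood at -0.28 (adjusted p = 0.77) among cells with exactly 5. Atp2a2, the calcium pump of the sarcoplasmic reticulum, and Ryr2, its release channel, had log2 fold changes of -0.95 and -0.96, below every WT embryo but not called. Of 25 chamber and regional genes tested of 26, 7 were lower, among them Myl2, the ventricular light chain, at 6.73, 3.54 and 5.20 CPM against 102, 185 and 780 CPM (-5.55 ± 0.84, adjusted p = 0.00012), Tdgf1 (-2.63) and Wnt11 (-2.90), and none was higher. Wnt2, a marker of the inflow region, was not called (-0.43, adjusted p = 0.2) and overlapped WT, at 168, 118 and 73.4 CPM against 109 to 224 CPM. Of 33 energy metabolism genes tested of 40, 11 were lower and none higher (median -0.79). Ckb, brain-type creatine kinase, was at 32.0, 35.4 and 29.2 CPM against 252, 367 and 684 CPM (-3.50 ± 0.34, adjusted p = 1.2e-06). Among cells with exactly 5 rule genes, none of the chamber or energy genes was called by edgeR, with 3 and 4 higher and 5 and 6 lower at an unadjusted p under 0.05, and Tdgf1 turned to 1.44. Of 22 calcium handling genes tested there, Hrc, of the sarcoplasmic reticulum, was called higher and none lower, with a list median of -0.05. Over all genes in that class 0.847% were lower and 1.06% higher. Among cells with 6 or 7 rule genes, 8 of 32 calcium handling, 6 of 25 chamber and 9 of 33 energy genes were lower and none higher, beside 3.13% lower and 1.87% higher over all genes.

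Of 24 genes of the second heart field and earlier progenitors, 1 was higher and 2 were lower, with a median of -0.03, shares close to those over all genes tested (2.56% and 4.22%). Mesp1, the factor that marks nascent cardiac mesoderm and is shut off before the heart tube forms, stood at 6.45, 22.1 and 21.2 CPM in Dnmt1 KO members against 0 to 1.70 CPM with a median of 0.630 CPM in WT (log2 fold change 4.56, adjusted p = 4.6e-06), and it was called in the same direction among cells with exactly 5 rule genes (3.76). Fgf8, a growth factor of the heart field, was lower, at 37.8, 19.4 and 25.5 CPM against 52.6 to 128 CPM (-1.43, adjusted p = 0.00076). It was not called among cells with exactly 5 (-0.87, adjusted p = 0.13) or with 6 or 7 rule genes (-1.31, adjusted p = 0.016). Of 17 p53 target genes tested of 20, 6 were higher and none lower. Among cells with exactly 5 rule genes 3 of 16 were higher, and among those with 6 or 7 it was 4 of 17, beside 1.06% and 1.87% of all genes tested. Ccng1, a cyclin, stood at 32.0, 43.3 and 47.7 CPM against 8.88 to 14.8 CPM (1.88, adjusted p = 1.3e-06), Phlda3, an Akt inhibitor, at 47.1, 60.1 and 61.3 CPM against 15.3 to 24.4 CPM (1.59, adjusted p = 1.2e-06), and Trp53inp1 was at 2.07 (adjusted p = 1.2e-05). These 3 were called in both classes of cell. Cdkn1a, the p21 cell cycle inhibitor, overlapped WT at 8.97, 27.4 and 20.3 CPM against 3.36 to 12.6 CPM and was called at 1.54 (adjusted p = 0.0071). It was called in neither class (1.78, adjusted p = 0.09, with exactly 5 and 0.60, adjusted p = 0.48, with 6 or 7). Of 7 genes of primed pluripotency tested of 10, 3 were higher (Slc7a3, Pou5f1 and Dnmt3b) and none lower, with none of 5 called by edgeR among cells with exactly 5 rule genes (2 higher at an unadjusted p under 0.05) and 4 of 7 higher among those with 6 or 7. Pou5f1, the pluripotency factor OCT4, was at 20.7, 7.07 and 31.8 CPM against 0.181 to 6.93 CPM (2.91, adjusted p = 0.0012). It was called among cells with 6 or 7 rule genes (2.84) and not tested among those with exactly 5. Of 38 replication and mitosis genes, 1 was lower (Cdkn1c, described below with the imprinted genes) and none higher. None of 20 housekeeping genes was called by edgeR or DESeq2, with 4 higher and 2 lower at an unadjusted p under 0.05 in edgeR.

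Dnmt3a KO and Dnmt3b KO members kept the heart programme near WT. Sarcomere genes summed to 24514, 17930, 18030 and 25268 CPM in Dnmt3a KO and to 28425, 19397 and 20192 CPM in Dnmt3b KO, and both groups overlapped WT. In Dnmt3a KO, 0.0801% of all 12478 genes were called higher and 0.00801% lower, and in Dnmt3b KO 0.697% and 0.016% (0.713% in all). Neither edgeR nor DESeq2 called any of the 46 sarcomere genes, 25 transcription factors, 30 calcium handling genes, 25 chamber genes or 33 energy genes in either mutant. At an unadjusted p under 0.05 in edgeR, 3 sarcomere genes were higher in Dnmt3a KO and none lower, and 6 were higher and 1 lower in Dnmt3b KO. Of the transcription factors 5 were higher and none lower in Dnmt3a KO, and 1 was higher and 1 lower in Dnmt3b KO. The calcium, chamber and energy lists had 5, 4 and 4 higher and none lower in Dnmt3a KO, and 4, 0 and 5 higher with 1 lower each in Dnmt3b KO. Here and for the other lists, counts at an unadjusted p stand without the share of all genes at that p. They therefore cannot show an excess. The list medians lay between 0.02 and 0.21 in Dnmt3a KO and between -0.08 and 0.17 in Dnmt3b KO, beside -0.0011 and -0.0081 over all genes. The members of these groups therefore showed no called change in the heart lists at this depth, which does not show that no gene of them changed.

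Germline genes were called higher in members of all 3 mutants, many in Dnmt1 KO and Dnmt3b KO and few in Dnmt3a KO. The list held 55 genes known from oocytes and spermatogenic cells, and 40 passed the filter on low counts, which a gene silent in WT could pass only through a group in which it was high, so the counts describe the genes that were measurable. In Dnmt1 KO 34 of the 40 were higher, in Dnmt3b KO 26 and in Dnmt3a KO 5 (Slc25a31, Stk31, Tex19.1, Syce1 and Hsf2bp), and none was lower in any. Over all genes tested, 2.56%, 0.697% and 0.0801% were higher in Dnmt1 KO, Dnmt3b KO and Dnmt3a KO. The Dnmt3a KO comparison as a whole had no call in edgeR with thinned totals (219 of 9550 genes at an unadjusted p under 0.05), with members chosen after thinning (235 of 5490) or with a replicate block (169 of 12478). Without Dnmt1 KO 3 the number in Dnmt1 KO was 23. All 3 comparisons share the WT embryos. Summed over the list, WT members stood between 27.1 and 41.6 CPM. The sums were 556, 552 and 561 CPM in Dnmt1 KO, 67.4, 118, 132 and 128 CPM in Dnmt3a KO 1, 2, 13 and 14, and 214, 335 and 1114 CPM in Dnmt3b KO 1+2, 11 and 12, so every mutant embryo lay above every WT embryo. Unlike the sarcomere list, the germline sum in Dnmt1 KO hardly depended on the class of cell, at 561 CPM ± 43.8 in cells with exactly 5 rule genes and 586 CPM ± 72.1 in cells with 6 or 7, where 22 of 27 and 22 of 39 tested genes were called higher, beside 1.06% and 1.87% of all genes tested.

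**Figure D4:**
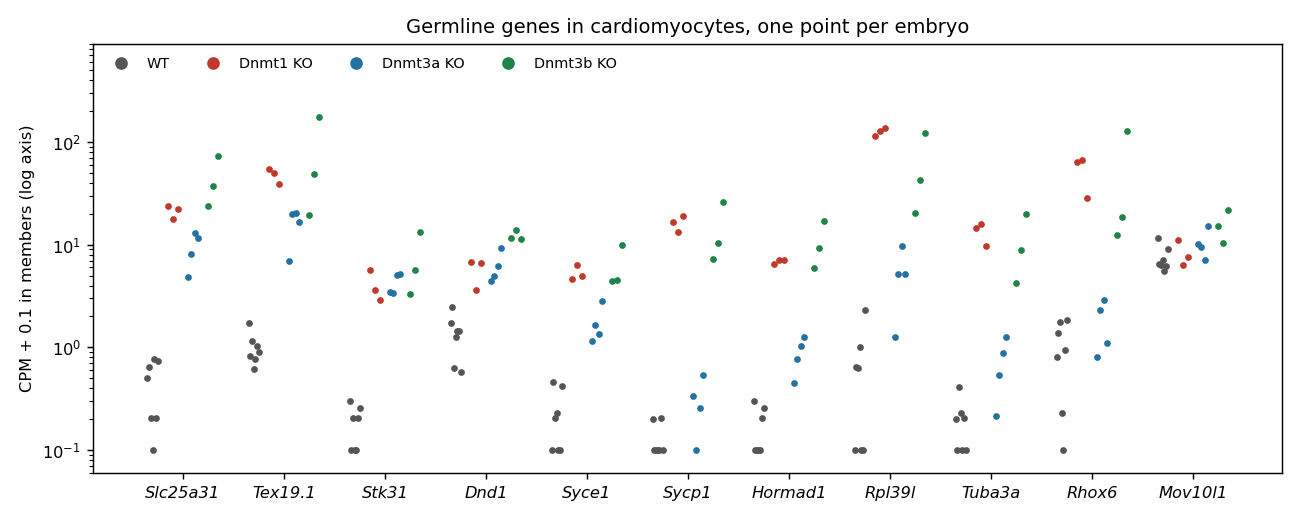
Level of selected germline genes in the members of each embryo (y axis, CPM plus 0.1 on a log scale; points are embryos, coloured by group). WT members reach at most 2.24 CPM for Slc25a31, Tex19.1, Sycp1, Stk31, Rpl39l and Hormad1, Dnmt3b KO 12 is the highest Dnmt3b KO embryo for Slc25a31, Tex19.1 and Sycp1, and Mov10l1 lies between 5.39 and 21.8 CPM in all groups.

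Slc25a31 encodes the ADP/ATP carrier of the germline mitochondria. It stood between 0 and 0.674 CPM in WT members with a median of 0.405 CPM. The Dnmt1 KO embryos were at 23.8, 17.7 and 21.9 CPM, the Dnmt3a KO embryos at 4.78, 7.96, 12.9 and 11.6 CPM and the Dnmt3b KO embryos at 23.7, 37.3 and 72.6 CPM. No mutant group overlapped WT, and the ratios of means were 59.9, 26.3 and 126. The log2 fold changes were 6.26 ± 0.48 (adjusted p = 9.1e-08), 4.91 ± 0.48 (adjusted p = 4.6e-05) and 7.20 ± 0.43 (adjusted p = 1.3e-08). In members thinned to 3000 UMIs, 0.353% ± 0.810 of WT, 8.64% ± 0.282 of Dnmt1 KO, 2.84% ± 0.715 of Dnmt3a KO and 12.1% ± 5.65 of Dnmt3b KO members had a Slc25a31 UMI, against 0.283% of the thinned rest of WT.

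Tex19.1, which restrains retrotransposons in germ cells and placenta, stood between 0.523 and 1.62 CPM in WT with a median of 0.8 CPM. The Dnmt1 KO embryos were at 54.1, 49.5 and 38.8 CPM, those of Dnmt3a KO at 6.88, 19.9, 20.3 and 16.5 CPM and those of Dnmt3b KO at 19.5, 48.7 and 175 CPM, again without overlap with WT. The log2 fold changes were 5.66 ± 0.56 (adjusted p = 1.3e-06), 3.96 ± 0.55 (adjusted p = 0.003) and 6.33 ± 0.52 (adjusted p = 7.4e-07). Stk31, a Tudor-domain kinase-like protein of the germline, was at most 0.202 CPM in WT, at 5.61, 3.54 and 2.79 CPM in Dnmt1 KO, at 3.38, 3.32, 4.96 and 5.06 CPM in Dnmt3a KO, and the Dnmt3b KO embryos were at 3.21, 5.57 and 13.2 CPM. Its log2 fold changes were 5.19, 5.14 and 5.96, all 3 called. Dnd1, an RNA-binding protein of germ cells that stood outside the germline list and was called in the Dnmt3a KO comparison, was at 4.31, 4.86, 6.04 and 9.25 CPM in Dnmt3a KO against 0.480 to 2.36 CPM in WT (2.26 ± 0.30, adjusted p = 0.0024), and was also called in Dnmt1 KO (2.36) and Dnmt3b KO (3.29). In Dnmt3a KO the whole comparison held 11 called genes, which became 2 without Dnmt3a KO 13 and 21 without WT 2. The Slc25a31 and Stk31 calls in Dnmt3a KO held in 30 and 29 of 32 alternative analyses, that of Tex19.1 in 23 of 33 and that of Syce1 in 14 of 31.

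Sycp1, the transverse filament of the synaptonemal complex that pairs meiotic chromosomes, had 2 UMIs in all WT members together. It stood at 16.5, 13.3 and 18.8 CPM in Dnmt1 KO and at 7.12, 10.2 and 26.1 CPM in Dnmt3b KO, pooled ratios to WT of 433 (95% counting interval 120 to 3574) and 338 (93.6 to 2793). In Dnmt3a KO it was at 0.233, 0, 0.155 and 0.434 CPM, a pooled ratio of 5.65 (1.56 to 46.7) that was not called. Hormad1, a protein of the meiotic chromosome axis, was at most 0.202 CPM in WT, at 6.45, 7.07 and 7.06 CPM in Dnmt1 KO, at 0.350, 0.663, 0.929 and 1.16 CPM in Dnmt3a KO and at 5.84, 9.19 and 16.8 CPM in Dnmt3b KO. Syce1, of the central element, was called in all 3, with log2 fold changes of 5.26, 3.53 and 5.46 (adjusted p = 2.7e-06, 0.0075 and 1.3e-06). Rpl39l, the testis form of a ribosomal protein, was at 115, 127 and 135 CPM in Dnmt1 KO members against 0 to 2.24 CPM in WT (log2 fold change 7.79 ± 0.62, adjusted p = 1.3e-07), at 20.3, 42.6 and 124 CPM in Dnmt3b KO (6.65 ± 0.62, adjusted p = 2e-06) and at 1.17, 5.08, 9.60 and 5.06 CPM in Dnmt3a KO, where it was not called (3.04, adjusted p = 0.2). Rpl39l, Tuba3a and the Xlr genes have near-identical copies in the genome, and since reads that fit several genes are dropped by the counting, their counts are uncertain.

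Compared directly, Dnmt3b KO members had 16 genes higher (0.128% of genes tested) and 1 lower (0.00801%) than Dnmt3a KO members, 0.136% in all. The higher genes included 8 of the germline list. Sycp1 had a log2 difference of 5.91 ± 0.53 (adjusted p = 1.3e-05), Hormad1 3.78 ± 0.42 (adjusted p = 0.00018), Tuba3a, a testis tubulin, 4.12 ± 0.54 (adjusted p = 0.00063), Rpl39l 3.61 ± 0.58 (adjusted p = 0.0053) and Slc25a31 2.28 ± 0.34 (adjusted p = 0.0026). The Dnmt3a KO and Dnmt3b KO embryos did not overlap for any of these 5 genes, which were picked from the calls, so this is a description. Rhox6, an X-linked homeobox gene of placenta and germ cells, stood at 12.3, 18.5 and 127 CPM in Dnmt3b KO against 0.70 to 2.79 CPM in Dnmt3a KO and 0 to 1.76 CPM in WT (log2 difference 5.03 ± 0.73, adjusted p = 0.0024). Stk31 (0.81, adjusted p = 0.91), Syce1 (1.92, adjusted p = 0.088), Tex19.1 (2.38, adjusted p = 0.046) and Dnd1 (1.03, adjusted p = 0.36) did not pass this test. Dnmt3b KO 12 was the highest of the 3 Dnmt3b KO embryos for Sycp1, Rpl39l, Tex19.1, Slc25a31 and Rhox6. Its matrix alone was counted with Cell Ranger 5.0.0 by its header. It alone of the Dnmt3a KO and Dnmt3b KO embryos was without Y-linked transcripts. With the Y-linked level as a covariate, 10 genes were called higher and 1 lower. As given above, Dnmt3a transcripts in Dnmt3b KO 11 and 12, but not 1+2, lay in the range of the Dnmt3a KO embryos. Germline sums were 335, 1114 and 214 CPM in Dnmt3b KO 11, 12 and 1+2. The part of the version and of the Dnmt3a level in this comparison was not tested. Leaving out 1 embryo at a time gave between 7 called genes (without Dnmt3a KO 1) and 28 (without Dnmt3b KO 1+2). No gene was called in edgeR with members chosen after thinning, with thinned totals or with a replicate block, as given below with the unadjusted counts.

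Few genes were lower in members of the de novo mutants. Ahcy, which breaks down the S-adenosylhomocysteine left by methyl transfer, stood at 5.39, 4.72 and 6.89 CPM in Dnmt3b KO members against 14.2, 19.3 and 22.9 CPM in WT (log2 fold change -1.69 ± 0.16, adjusted p = 3e-06) and 11.6 to 14.6 CPM in Dnmt3a KO (log2 difference -1.16 ± 0.17, adjusted p = 0.0029). The predicted gene Gm14226 stood at 0.321, 0.506 and 0.358 CPM against 2.73 to 9.30 CPM in WT (-3.77 ± 0.64, adjusted p = 0.0023). Both were lower in the rest of the embryo too, at 7.52 against 21.0 CPM and at 0.0476 against 13.2 CPM, and both lie on chromosome 2, as does Dnmt3b. Whether this position had a part in the result was not tested. In Dnmt3a KO, Gstm6, a glutathione transferase, was the gene called lower, at 0.233, 0.221, 0.310 and 0.578 CPM against 2.02 to 3.20 CPM in WT (-3.01 ± 0.49, adjusted p = 0.0084), and Selenbp1, a selenium-binding methanethiol oxidase, was called higher (1.83 ± 0.30, adjusted p = 0.0097). These last 2 calls held in 12 of 30 and 10 of 31 alternative analyses.

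Genes on the X chromosome were frequent among the higher genes. They made up 3.90% of the genes tested, 55 of the 320 higher in Dnmt1 KO (17.2%), 26 of the 87 higher in Dnmt3b KO (29.9%) and 1 of the 10 higher in Dnmt3a KO. Xlr4c, of an X-linked family related to synaptonemal complex genes, stood at 12.3, 8.84 and 10.0 CPM in Dnmt1 KO and at 2.18, 4.55 and 14 CPM in Dnmt3b KO against 0 to 0.736 CPM in WT. Xlr3a and Xlr4b were likewise called in both (3.81 and 3.49 in Dnmt1 KO, 3.31 and 3.1 in Dnmt3b KO). Xist, the RNA of the inactive X, stood between 529 and 685 CPM in the 6 WT embryos without Y-linked transcripts, at 0.544 CPM in WT 2, at 24.1, 17.7 and 11.9 CPM in Dnmt1 KO, and at 0.706, 0.169 and 579 CPM in Dnmt3b KO. All 3 Dnmt1 KO embryos thus carried Xist at 11.9 CPM or more beside Eif2s3y, and WT 2 did not. The groups thus differ in Y-linked transcripts as well as in genotype. With the Y-linked level as a covariate, 676 genes were called in Dnmt1 KO, 14 in Dnmt3a KO, and 142 were called in Dnmt3b KO, against 847, 11 and 89 without it. Of the calls without it, 575, 4 and 84 were also made with it, so most of the Dnmt3a KO calls were not. With it, the log2 fold change of Xist in Dnmt1 KO members turned from -4.78 (adjusted p = 0.046) to 5.27 (adjusted p = 6.2e-08).

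Imprinted genes, which are expressed from the maternal or the paternal copy only, were called in Dnmt1 KO members and not in the other 2 mutants, and the difference between mutants was not tested for them. Of 49 tested of 57, 9 were higher and 7 lower, beside 2.56% and 4.22% of all genes tested. Cdkn1c, the p57 cell cycle inhibitor expressed from the maternal copy, stood at 19.9, 28.3 and 10.6 CPM in Dnmt1 KO members against 1519, 1712 and 2550 CPM in WT, 92.4-fold lower (log2 fold change -6.56 ± 0.28, adjusted p = 1.4e-11). In thinned members a Cdkn1c UMI was present in 88.3% ± 2.93 of WT and 3.49% ± 1.58 of Dnmt1 KO members, against 27.9% of the rest of WT. Grb10, an adaptor that restrains growth factor signalling, stood at 3.64, 5.30 and 5.57 CPM against 258, 339 and 396 CPM, 67.6-fold lower (-5.97 ± 0.22, adjusted p = 2.4e-12). Igf2r, the clearance receptor for IGF2, was at 41.8, 23.0 and 30.7 CPM against 193 to 303 CPM (-2.70, adjusted p = 2.5e-08). All of these lay far below WT.

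On the paternal side, Igf2, the growth factor itself, was lower, at 0.280, 0.884 and 0.186 CPM against 16.2 to 27.0 CPM (-5.79, adjusted p = 2.7e-06), and so was Dlk1 (-3.09, adjusted p = 3.2e-07), at 10.7, 15 and 11.5 CPM against 88.5 to 127 CPM. H19, the maternally expressed RNA beside Igf2, was higher, at 1881, 2216 and 1731 CPM against 567, 652 and 887 CPM (1.59 ± 0.15, adjusted p = 1.2e-06), and Peg3, a paternally expressed zinc finger gene, was at 1256, 1275 and 1374 CPM against 461 to 604 CPM (1.37 ± 0.09, adjusted p = 1.7e-08). All 7 genes named here were also called, in the same direction, among cells with exactly 5 rule genes, with Cdkn1c at -5.46, Grb10 at -5.62 and H19 at 1.30. Neither edgeR nor DESeq2 called an imprinted gene in Dnmt3a KO or Dnmt3b KO, with 6 higher and 1 lower, and 3 higher and 4 lower, at an unadjusted p under 0.05 in edgeR. Dlk1 in Dnmt3b KO, at 59.1, 73.9 and 41.8 CPM, lay below every WT embryo with an adjusted p of 0.033.

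The difference between mutant and WT was then compared between the members and the rest of the same embryos, with the embryo as a block. In Dnmt1 KO, 123 of 16000 genes (0.769%) had a difference that was higher in the members than in the rest and 474 (2.96%) one that was lower, 3.73% in all. The lower genes included 32 of 49 sarcomere genes tested, 6 of 25 transcription factors and 10 of 35 calcium handling genes. The sarcomere list is tied to the rule, which also set the rest apart. Its count here is therefore not independent of how the members were chosen and is no second test of their difference from WT. In the rest, Actn2 and Ankrd1 averaged 0.414 and 1.33 CPM in WT and 0.557 and 0.319 CPM in Dnmt1 KO. In the rest of WT embryos the sarcomere list summed to 1021 to 1176 CPM, the factors to 332 to 384 CPM and the calcium handling list to 1171 to 1445 CPM, the last against 2171 to 2463 CPM in WT members. With endothelial cells, chosen by 5 of 8 endothelial markers, in place of the rest, 222 of 13353 genes (1.66%) had a difference that was higher in the members and 223 (1.67%) one that was lower. Of these, 147 were also called against the rest. Of 46 sarcomere genes, 11 were lower. Actn2 was called with either comparison (-5.25 and -6.27), as was Ckb (-5.28 and -3.50), which in the rest of the embryo moved the other way, at 72.5 CPM in Dnmt1 KO against 18.7 CPM in WT. Ankrd1 was called against the rest (-5.31, adjusted p = 7.4e-05) and not against endothelium (-4.24). Cdkn1c fell more in members than in the rest (-1.92 ± 0.28, adjusted p = 0.00012), where it stood at 9.18 CPM in Dnmt1 KO and 262 CPM in WT, but not more than in endothelium (-0.13). Pax6, a neural factor, had an interaction of 4.48 ± 0.43 (adjusted p = 2e-06), and it stood at 1.19 CPM in the rest of Dnmt1 KO embryos against 19.5 CPM in WT while the members overlapped WT. Among members with 6 or 7 rule genes it was called higher (1.75, adjusted p = 0.0039), and with exactly 5 it stood at 0.096. The 8 neuroectoderm markers, Pax6 among them, were also lower in the rest, summing to 34.8, 20.9 and 61.1 CPM in Dnmt1 KO and to between 99.1 and 193 CPM in WT, with none at 0, and their part in the result was not tested.

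In Dnmt3a KO and Dnmt3b KO the 2 parts of the embryo differed in 2 genes (0.0125%) and 8 genes (0.0437% higher and 0.00625% lower). Slc25a31 was called in all 3 mutants, with interactions of 2.04 ± 0.33 (Dnmt1 KO, adjusted p = 0.00033), 2.47 ± 0.31 (Dnmt3a KO, adjusted p = 0.0035) and 2.65 ± 0.30 (Dnmt3b KO, adjusted p = 0.00023). Mean levels in the rest were 1.02 CPM in WT and 16.9, 5.67 and 24.6 CPM in the 3 mutants, in the same order, so the gene was higher there as well, from a higher WT level. In Dnmt3a KO the Slc25a31 call held in 17 of 27 alternative analyses and that of Tex19.1 in 13 of 27. Both were lost without Dnmt3a KO 13, Dnmt3a KO 14, WT 2, WT 3 or WT 6. They were also lost with 6 of the 7 rule genes, with at least 50 members and with members chosen after thinning. Against endothelium the interaction of Slc25a31 was 0.65, 1.71 and 1.46 and was not called. Tex19.1 was also called in all 3 against the rest (1.59, 1.92 and 2.88), and against endothelium it stood at -0.99, 0.21 and 0.56. In thinned cells, a Tex19.1 UMI was found in 0.311% of WT members and 0.959% of the rest of WT. In Dnmt1 KO it was found in 17.5% of members and 14.8% of the rest. The shares were 5.50% and 4.48% in Dnmt3a KO and 21.2% and 10.2% in Dnmt3b KO. As a ratio to WT, these 2 genes therefore rose more in members than in the mixture of all other cells, from a lower WT level. Their rise was not measurably larger than in endothelium.

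**Figure D5:**
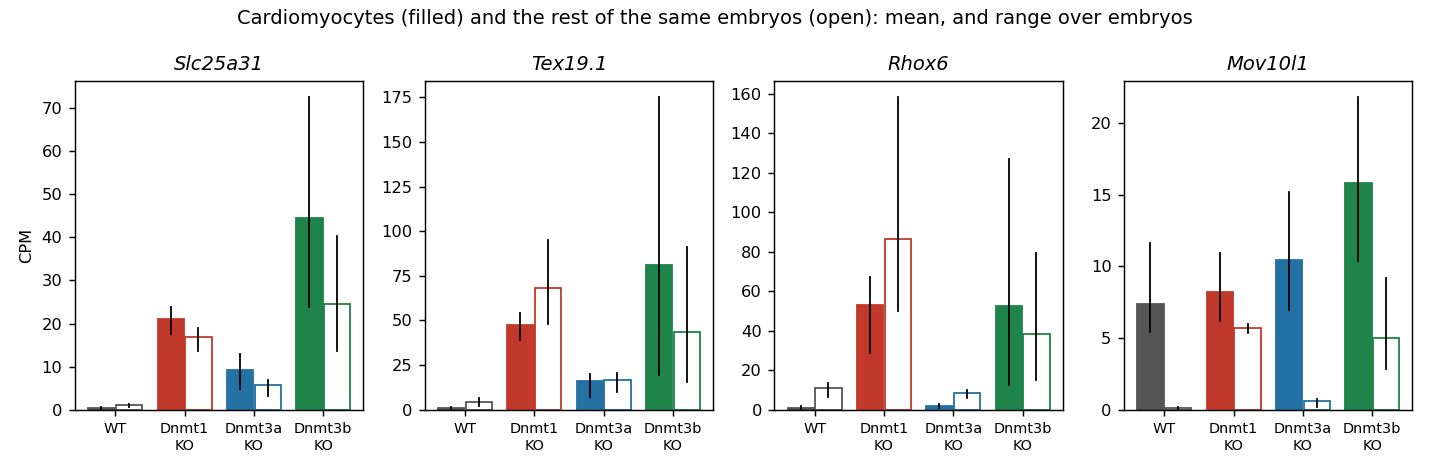
Level of Slc25a31, Tex19.1, Rhox6 and Mov10l1 (y axis, CPM from 0) in the members (filled bars) and in the rest of the same embryos (open bars); bars are group means and lines are the range over embryos. Slc25a31 in WT averages 1.02 CPM in the rest and at most 0.674 CPM in the members, and Mov10l1 in WT averages 0.104 CPM in the rest and at least 5.39 CPM in the members, while the rest of Dnmt1 KO reaches a mean of 5.68 CPM.

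Mov10l1, an RNA helicase of the piRNA pathway with a heart isoform, was 1 of the 6 germline genes that were tested and not called in Dnmt1 KO members. WT members already expressed it, at 5.39, 6.34 and 11.6 CPM as the lowest, median and highest value, against 0.104 CPM in the rest of WT embryos. Counts per gene do not tell its isoforms apart. Dnmt1 KO members were at 10.9, 6.19 and 7.43 CPM and overlapped WT (log2 fold change 0.25, adjusted p = 0.59), while the rest of Dnmt1 KO embryos rose to 5.68 CPM and the rest of Dnmt3b KO embryos to 5.00 CPM. The interaction was -5.76 ± 0.47 in Dnmt1 KO (adjusted p = 5.4e-07) and -4.42 ± 0.42 in Dnmt3b KO (adjusted p = 1.8e-05). Against endothelium it was called in Dnmt1 KO (-6.89) and not in Dnmt3b KO (-5.04, adjusted p = 0.013). Within WT members the gene followed the rule, at 10.1 CPM ± 2.51 in cells with 6 or 7 rule genes and 0.433 CPM ± 0.921 in cells with exactly 5. In Dnmt1 KO the 2 classes lay close together, at 8.05 CPM ± 3.78 and 8.63 CPM ± 2.97, and among cells with exactly 5 the difference from WT was called (log2 fold change 4.25, adjusted p = 0.0026).

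The members also varied among themselves. In WT members thinned to 3000 UMIs, Myl2 was found in 29.9% ± 10.1 (n = 7) and in 0.395% of the rest. Over all WT members, thinned in this way as for all shares in this paragraph, 85.8% of 127 cells with an Nppa UMI also had a Myl2 UMI, against 25.8% of the 1080 cells without Nppa. Isl1, the factor of the second heart field, was found in 3.35% of 388 cells with Myl2 and in 15.4% of 819 cells without it, and Irx4 in 17.5% and 5.37%. The same split stood in Dnmt3a KO, where Myl2 was found in 80.2% of Nppa-positive and 25.8% of other members and Isl1 in 4.95% of Myl2-positive and 15.2% of other members, and in Dnmt3b KO (79.7% and 31.0%, and 5.38% and 15.6%). Within embryos, the share with Myl2 was higher among Nppa-positive than among other members in 7 of 7 WT embryos, though in WT 7 (5 Nppa-positive cells) it was 20% against 19.6%. WT 1 gave 78 of the 127 Nppa-positive cells (98.7% against 33.6%). Isl1 was less frequent among Myl2-positive members in 7 of 7 WT embryos, and Irx4 more frequent in 7 of 7. These 3 directions were the same in each of the 4 Dnmt3a KO and 3 Dnmt3b KO embryos. Of the 3 other pairs looked at, Nr2f1 was less frequent among Myl2-positive members in 6 of 7 WT embryos, whereas Vsnl1 was more frequent among Nr2f1-positive members in 4 of 7 and Isl1 among Tdgf1-positive members in 2 of 7. Cells of an embryo share their library, so these shares are a description. Among thinned Dnmt1 KO members, 5 had Myl2 and 1 had Nppa, too few for a comparison, whereas Isl1 was found in 15.02% ± 6.05 of thinned Dnmt1 KO members and 11.01% ± 3.47 of thinned WT members, against 3.42% of the thinned rest of WT.

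Nppa itself differed widely between embryos, from 8.30 to 573 CPM in WT with a median of 40.2 CPM, and Dnmt1 KO members at 3.92, 0.884 and 3.90 CPM lay below all of them without a call (-5.13 ± 1.59, adjusted p = 0.026). Col2a1 and Noct, which are outside the lists, stood among the strongest calls in Dnmt1 KO members. Col2a1, the main collagen of cartilage, stood at 11.2, 6.19 and 13 CPM against 158 to 323 CPM in WT (-4.12, adjusted p = 2.3e-08) and was at -1.14 without a call among cells with exactly 5 rule genes. Noct, the rhythmically expressed nocturnin, stood at 93.6, 56.6 and 70.6 CPM against 13.2 to 22.2 CPM (2.28, adjusted p = 9.3e-09) and was called in those cells as well (2.47).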

How the data were processed

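The libraries were processed by the authors with Cell Ranger, and the deposited matrices hold raw UMI counts per gene and barcode on mm10, in 4 libraries on a combined human and mouse reference of which the mouse genes were used. The file headers give version 3.1.0 for 17 matrices and 5.0.0 for 1, that of Dnmt3b KO 12. Per the paper's methods, annotation was GRCm38.92. No filter on mitochondrial or ribosomal share was applied and no doublets were removed. One alternative applied the authors' limits of 30% mitochondrial and 35% ribosomal UMIs together with removal of doublets (Scrublet in scanpy 1.11.5). The authors' minimum of 1500 UMIs was tried for the shares only. Doublets were the barcodes with the highest Scrublet scores, cut in each library at a preset 0.8% per 1000 barcodes. The shares over all barcodes were therefore set by library size and are no measured rates. A larger share of members than of all barcodes was cut in every group. The shares were 10.4% against 4.09% in WT and 3.1% against 1.4% in Dnmt1 KO. They were 12.6% against 5.66% in Dnmt3a KO and 14.4% against 6.38% in Dnmt3b KO.

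Members were barcodes with at least 3000 mouse UMIs and 2 UMIs for 5 of the 7 rule genes, and counts were summed over the members of each embryo. The 31053 mouse genes less the 7 rule genes were filtered with filterByExpr, which left 12478, scaled by TMM and tested in edgeR 4.0.16 (quasi-likelihood, R 4.3.3) over all 17 embryos in 1 fit, with Benjamini-Hochberg adjustment. Each embryo had at least 20 members. Calls needed an adjusted p under 0.01 together with a change of 1 or more on the log2 scale, the thresholds of the study. SEs are the log2 fold change divided by the square root of the F statistic. The effect in members against the rest was the interaction of genotype and part with the embryo as a block. Shares were compared on log2 of (members + 0.5) per barcode by exact permutation (scipy 1.17.1).

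The scripts were tested on simulated data with known changes. Alternatives were DESeq2 1.42.0, no low-count filter, other rules and minimum numbers of members, thinning to 3000 UMIs, a Y-linked covariate, a replicate block and leaving out each embryo. The classes of exactly 5 and of 6 or 7 rule genes, each in embryos with at least 10 such cells, and endothelium as the comparison were added after the data were seen. Named genes were the rule genes, the targeted genes, the 10 calls with the lowest p each way, up to 6 called and 4 abundant uncalled genes of each list and the leading interactions. The members and lists were chosen with earlier results of these data known. Counting intervals and floors cover counting error only, at 95% confidence.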

Additional observations from a re-analysis of the deposited data

Results flagged for a closer look

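In 20 of the 152 sets of values that were examined, 1 embryo stood far from the others, where chance gives about 5% for normally spread values. Sex-linked genes and genes near 0, which were among them, are not spread in that way. Only WT, with 7 embryos, and Dnmt3a KO, with 4, were examined. Dnmt1 KO and Dnmt3b KO, with 3 embryos each, were not. WT 1 was the highest WT embryo for Myl4 (5076 CPM, others up to 3395), Myl3 (1889 CPM, others up to 1240), Hopx (176 CPM, others up to 100), Ckb (684 CPM, others up to 411) and Nppa (573 CPM, others up to 138), and the lowest for Dnmt1 (67.1 CPM, others from 96.8). WT 5, the embryo with the fewest WT members, was the highest for Cdkn1c (2550 CPM), Col2a1 (323 CPM), Igf2r (303 CPM) and Smyd1 (161 CPM). WT 2 was the highest for Igf2 (27.0 CPM) and stood alone for the sex-linked genes, with Eif2s3y at 41.5 CPM against 0 in the other 6 and Xist at 0.544 CPM against at least 529 CPM.

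Among genes close to 0 in WT, WT 7 was highest for Rpl39l (2.24 CPM) and WT 3 for Tuba3a (0.315 CPM) and Xlr4c (0.736 CPM). Dnmt3a KO 13 was lowest of its group for Cdkn1c (1225 CPM, others from 1700) and highest for Dlk1 (155 CPM) and for Mesp1 (0.619 CPM), and Dnmt3a KO 14 was highest for Noct (25.01 CPM).

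The mutant effect differed between members and the rest of the embryo, by the test of that difference, in 597 genes for Dnmt1 KO, 2 genes for Dnmt3a KO and 8 genes for Dnmt3b KO. Among the genes named, the log2 difference of effects in Dnmt1 KO was -5.25 for Actn2, -5.31 for Ankrd1, -1.92 for Cdkn1c, -5.28 for Ckb, -5.76 for Mov10l1, 4.48 for Pax6, 2.91 for Rhox6, 2.04 for Slc25a31, 1.59 for Tex19.1, 2.51 for Xlr3a, 2.01 for Xlr4b and 3.59 for Xlr4c. In Dnmt3a KO it was 2.47 for Slc25a31 and 1.92 for Tex19.1. In Dnmt3b KO it was -4.42 for Mov10l1, 3.6 for Rhox6, 2.65 for Slc25a31, 2.58 for Stk31, 2.88 for Tex19.1, 2.24 for Xlr3a, 2.33 for Xlr4b and 3.70 for Xlr4c. None of these Dnmt3a KO and Dnmt3b KO differences was called with endothelium in place of the rest. Mov10l1 in Dnmt3b KO stood there at -5.04 (edgeR, adjusted p = 0.013), while the other differences in these 2 mutants were smaller than against the rest.

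The 4 libraries counted on a combined reference held UMIs on human genes, at 0.00906% of all UMIs in WT 1, 0.0094% in Dnmt3b KO 11, 0.00991% in Dnmt3a KO 1 and 0.00889% in Dnmt3a KO 13, and these were left out.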

How the results depend on the processing

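The log2 difference in the share of cardiomyocytes between Dnmt1 KO and WT turned from -1.002 to 0.0465 when 4 of the 7 genes were asked for, and it lay between -1.38 and -0.38 when 1 embryo was left out, the latter without Dnmt1 KO 2. Leaving out 1 embryo gave -0.70 to -0.30 in Dnmt3a KO and 0.25 to 0.61 in Dnmt3b KO. The number of called genes in Dnmt1 KO members (847) fell to 169 with every embryo's summed counts thinned to the smallest total and to 194 among cells with exactly 5 rule genes, and leaving out 1 embryo gave 489 (without Dnmt1 KO 3) to 918. No value for Dnmt1 KO could be had with members chosen after thinning, with at least 50 members, or with 6 genes and at least 20 members.

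In Dnmt3a KO (11 genes) the count was 20 with DESeq2, 18 with no low-count filter, 4 with 6 of the 7 genes, 5 with at least 50 members, 2 among cells with exactly 5 genes, and 0 in edgeR with members chosen after thinning (235 of 5490 genes at an unadjusted p under 0.05) or with thinned totals (219 of 9550), and it was 2 (without Dnmt3a KO 13) to 21 (without WT 2) with 1 embryo left out. In Dnmt3b KO (89 genes) it was 1 with members chosen after thinning, 9 with thinned totals, 142 with the Y-linked covariate and 36 among cells with exactly 5 genes, and 63 (without Dnmt3b KO 12) to 118 (without Dnmt3b KO 1+2) with 1 embryo left out. For Dnmt3b KO against Dnmt3a KO (17 genes) it was 28 with no filter, 10 with 6 of the 7 genes, 8 with at least 50 members, 5 with only those 2 groups in the fit, 11 with the Y-linked covariate, 5 among cells with exactly 5 genes, and 0 in edgeR after thinning (179 of 5490 at an unadjusted p under 0.05) or with thinned totals (496 of 9550), and 7 to 28 with 1 embryo left out. Thinned data hold fewer counts and fewer genes to test, and the other causes were not tested.

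For the difference between members and rest, Dnmt3a KO (2 genes) gave 1 after thinning (another gene, lower, so that neither of the 2 was called), 1 with the filters on mitochondrial, ribosomal and doublet cells, and 0 in edgeR with 6 of the 7 genes (957 of 15570 genes at an unadjusted p under 0.05), with at least 50 members (1062 of 18248) or with endothelium (969 of 13353), and 0 to 2 with 1 embryo left out. Dnmt3b KO (8 genes) gave 15 with DESeq2, 3 with endothelium (none of them among the 8) and 4 to 10 with 1 embryo left out, and Dnmt1 KO (597 genes, 123 higher and 474 lower) gave 408 to 615 with 1 embryo left out and 445 with endothelium (222 higher and 223 lower).

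The replicate numbers did not pair the embryos, since the deviations of same-numbered embryos had correlations between -0.13 and 0.16. A replicate block, fitted over all 17 embryos which leaves 3 residual degrees of freedom, gave 181 higher and 386 lower genes in Dnmt1 KO, 1 gene in Dnmt3b KO, and 0 in edgeR in Dnmt3a KO (169 of 12478 genes at an unadjusted p under 0.05) and in Dnmt3b KO against Dnmt3a KO (258 of 12478).

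For the genes named in the report, 311 gene results were recomputed under alternatives, giving 9662 values, of which 9294 kept their direction and their side of the threshold, 305 lost a call, 55 gained one and 8 turned in direction. Among these 8, 5 turned among cells with exactly 5 rule genes in Dnmt1 KO, namely Ttn (0.78), Tnnc1 (0.45), Smyd1 (0.85), Tdgf1 (1.44) and Pgam2 (1.11), where the cells compared differ by construction. With endothelium as the comparison, Tex19.1 in Dnmt1 KO (-0.99) and Xlr4b in Dnmt3b KO (-0.22) turned, and with the Y-linked covariate Xist in Dnmt1 KO turned (5.27). The small number of Dnmt1 KO members, 23 in the smallest embryo, limits the precision of every Dnmt1 KO value.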
